A study of Mus musculus with 12 samples.

Results

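The 10 genes described here belong to the epithelial to mesenchymal transition (EMT) and to cell adhesion, and their levels come from RNAseq samples of mouse brainstem progenitors. They are the transcription factors *Snai1*, *Snai2*, *Twist1*, *Zeb1*, *Zeb2* and *Prrx1*, the classical cadherins *Cdh1*, *Cdh2* and *Cdh11*, and the adhesion molecule *L1cam*. All 10 were found, by Ensembl gene identifier, among the 54532 genes of each count table. The cells came from the brainstem of C57BL/6 pups of postnatal days 3 to 5 that carried a Nestin TVA transgene and floxed p53, and were grown without serum with EGF and FGF2. They were infected with RCAS vectors, avian retroviral vectors that enter only cells carrying the TVA receptor, here driven by the nestin promoter. The 4 groups of 3 samples each received human *ACVR1* WT, human *ACVR1* R206H, *ACVR1* WT together with H3.1K27M, or *ACVR1* R206H together with H3.1K27M. Floxed p53 was shared by all 4 groups, no Cre vector is named for these cultures, and there was no group without an *ACVR1* vector. Infected and uninfected cells were not separated as far as the sources say.

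In an EMT, epithelial cells give up their junctions and become migratory, and the transcription factors of the Snail, Twist and Zeb families repress *Cdh1* by binding E-box sequences. Loss of E-cadherin (*Cdh1*) with gain of N-cadherin (*Cdh2*) or cadherin 11 (*Cdh11*) is known as the cadherin switch. Neural progenitors are not a typical epithelium, and many of them hold N-cadherin junctions and Zeb factors as part of their normal state. *ACVR1* encodes ALK2, a type I receptor for bone morphogenetic proteins (BMPs), R206H is an activating change in it, and H3.1K27M is a histone change that impairs methylation of lysine 27 of histone H3.

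The sequence that links these genes is the E-box, written CANNTG. Its form CAGGTG is bound by Snail and Zeb factors. Both forms were searched on both strands in the 250 bases before the start of each RefSeq promoter (GRCm38.p6), and CAGGTG is itself a CANNTG. Promoters were matched for 5 of the 10 genes, *Snai1*, *Twist1*, *Zeb2*, *Prrx1* and *L1cam*. Over all 32851 promoters, 17.2% held CAGGTG and 66.2% held CANNTG in this window. Of the 5 genes, 1 held CAGGTG or its complement. That gene was *Snai1*, 126 bases before its start. The window of the first of 2 *L1cam* promoters held a different E-box 134 bases before its start, and the windows of *Prrx1*, *Twist1* and *Zeb2* held none. *Zeb2* is not shown, although it too has called differences. The 3 windows shown are of *Snai1*, which has the only match of the Snail and Zeb form, and of *L1cam* and *Prrx1*, members with called differences. They are *Snai1* chr2:167537945-167538194 on the plus strand, *L1cam* chrX:73880791-73881040 on the minus strand and *Prrx1* chr1:163313651-163313900 on the minus strand, each printed 5′ to 3′ along its gene with E-boxes in capitals.
Snai1: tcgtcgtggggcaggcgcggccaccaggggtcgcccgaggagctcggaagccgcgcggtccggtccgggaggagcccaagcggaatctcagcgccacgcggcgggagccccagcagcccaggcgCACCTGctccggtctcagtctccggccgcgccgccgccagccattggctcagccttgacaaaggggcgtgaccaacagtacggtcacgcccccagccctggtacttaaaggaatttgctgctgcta
L1cam: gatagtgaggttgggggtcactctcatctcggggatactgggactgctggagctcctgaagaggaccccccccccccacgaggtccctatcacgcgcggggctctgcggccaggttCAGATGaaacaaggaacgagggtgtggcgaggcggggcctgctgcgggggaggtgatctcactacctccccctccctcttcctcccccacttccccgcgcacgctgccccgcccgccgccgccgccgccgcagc
Prrx1: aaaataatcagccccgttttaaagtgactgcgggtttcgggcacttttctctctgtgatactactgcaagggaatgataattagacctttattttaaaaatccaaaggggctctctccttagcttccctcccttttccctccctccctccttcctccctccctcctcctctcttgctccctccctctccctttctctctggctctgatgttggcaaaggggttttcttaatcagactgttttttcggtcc
A match describes the letters in the window, and binding was not measured here.

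Libraries held between 19315020 and 26456257 counts each (median 20994196). Replicate 1 of *ACVR1* WT stood apart: its mean correlation of log2 CPM (read counts scaled to library size after TMM) with its group was 0.961, against 0.980 and 0.970 for replicates 2 and 3 and at least 0.993 for each of the other 9 libraries. The tests, list counts and count ratios below that rest on the *ACVR1* WT group are therefore also given without that library where a call or a count changed or a value moved by over 1.5 times. Not every list is given in every comparison, with or without that library. *Acvr1*, the mouse counterpart of the vector gene, had 46.4 to 53.5 CPM with *ACVR1* WT, 81.9 to 113.6 with *ACVR1* R206H, 162.1 to 364.4 with *ACVR1* WT + H3.1K27M and 561.3 to 1056.8 with *ACVR1* R206H + H3.1K27M. The groups did not overlap, so that the *Acvr1* level differed with both the variant and H3.1K27M. Whether reads of the human *ACVR1* vector were counted on *Acvr1* was not tested, nor was the part of this level in the results below. All 10 genes of a progenitor marker list, among them *Nes* and *Sox2*, averaged over 1 CPM in every group, and their summed level was 5972 to 7626 CPM across the 12 samples.

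Per kilobase of exon, the 10 genes fell into 2 ranges of level. *Zeb1*, *Cdh2*, *Cdh11*, *Prrx1* and *Zeb2* had group means between 4.83 and 50.4 CPM per kb. *Twist1*, *Snai2*, *L1cam*, *Snai1* and *Cdh1* had group means between 0.052 and 1.23 CPM per kb. *Zeb1* was the highest of the 10 genes in each group, at 46.7, 50.4, 49.3 and 38.1 CPM per kb with *ACVR1* WT, *ACVR1* R206H, *ACVR1* WT + H3.1K27M and *ACVR1* R206H + H3.1K27M. *Cdh2* came next at 23.4 to 26.6 CPM per kb and *Cdh11* after it at 10.4 to 12.8. The mesenchymal cadherins and *Zeb1* were thus already abundant in progenitors with *ACVR1* WT alone, while E-cadherin had 0.055 to 0.083 CPM per kb in each group.

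**Figure D1:**
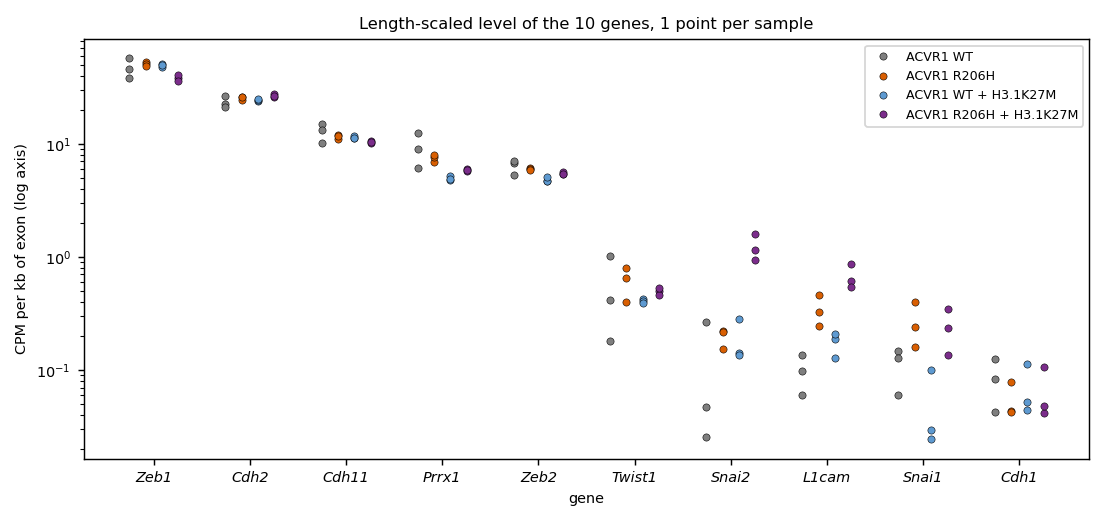
Level of the 10 genes per kilobase of merged exon (log axis, CPM per kb), 1 point per sample, coloured by group. *Zeb1*, *Cdh2*, *Cdh11*, *Prrx1* and *Zeb2* have group means from 4.83 to 50.4 CPM per kb, and the group means of the other 5 genes run from 0.052 to 1.23.

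A gene was tested in a comparison when its mean count, scaled to a common depth, was at least 10 over the samples compared. *Snai1* and *Cdh1* were too low to judge in all 5 comparisons, and *Snai2* was too low in the 2 comparisons that did not include *ACVR1* R206H + H3.1K27M, the group through which alone it was tested in the others. *Cdh1* (ENSMUSG00000000303, chr8:106603351-106670246, plus strand, GRCm38) encodes E-cadherin. It had 8, 11 and 4 counts with *ACVR1* WT and 4, 7 and 4 with *ACVR1* R206H. With H3.1K27M it had 5, 11 and 6 counts with *ACVR1* WT and 4, 5 and 13 with *ACVR1* R206H. All 4 groups overlapped, at 0.382 ± 0.188, 0.252 ± 0.095, 0.322 ± 0.175 and 0.298 ± 0.163 CPM (SD, n = 3). The ratio of summed counts of *ACVR1* R206H to *ACVR1* WT, corrected for depth, was 0.661 without H3.1K27M (95% exact interval 0.321 to 1.32, or 0.662 without replicate 1 of *ACVR1* WT) and 1.00 with it (0.529 to 1.90). These intervals cover counting error only, and changes in *Cdh1* within them were not detectable at this depth.

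*Snai1* (ENSMUSG00000042821, chr2:167538195-167542814, plus strand, GRCm38) encodes the founding Snail repressor. It had 5, 4 and 2 counts with *ACVR1* WT and 13, 5 and 8 with *ACVR1* R206H. With H3.1K27M it had 4, 1 and 1 counts with *ACVR1* WT and 8, 5 and 15 with *ACVR1* R206H. In each setting every R206H library exceeded every WT library, at 0.220 to 0.650 CPM against 0.040 to 0.237 CPM. The depth-corrected ratio of summed counts was 2.40 without H3.1K27M (exact interval 1.14 to 5.38, counting error only), or 2.87 (1.16 to 8.53) without replicate 1 of *ACVR1* WT, and 4.68 with it (1.90 to 13.8). In the fit with no minimum count, *Snai1* passed the threshold with H3.1K27M (log2 fold change 2.14, standard error 0.66, edgeR adjusted p = 0.0132) and not without it (log2 fold change 1.24, adjusted p = 0.81). Between H3.1K27M and no H3.1K27M the ratios were 0.469 (0.142 to 1.38) with *ACVR1* WT and 0.915 (0.517 to 1.62) with *ACVR1* R206H. With 1 to 15 counts per library, the size of any *Snai1* difference is poorly fixed.

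**Figure D2:**
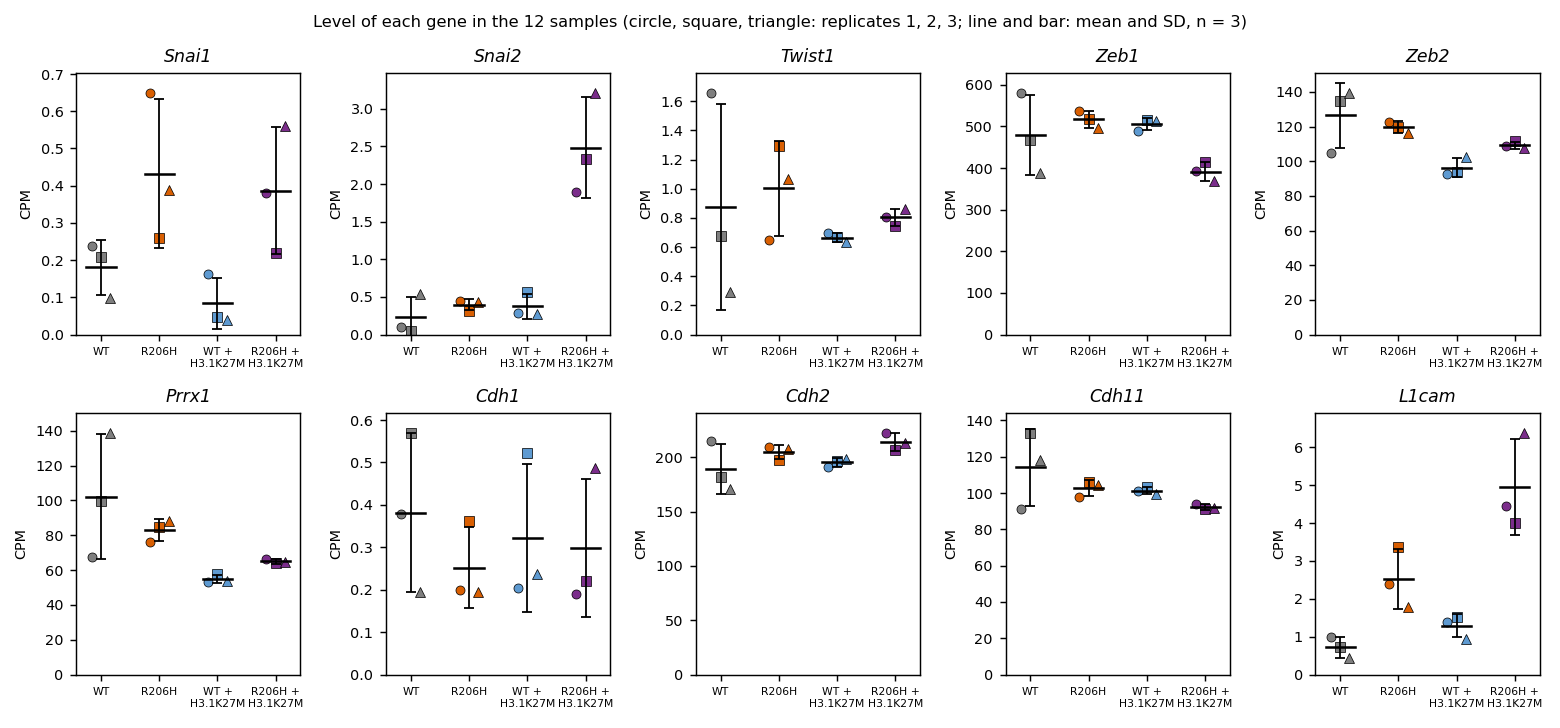
Level of each gene in the 12 samples (CPM, axes from 0), with circles, squares and triangles for replicates 1, 2 and 3, lines for group means and bars for the SD (n = 3). *Snai2* and *L1cam* are highest in the 3 *ACVR1* R206H + H3.1K27M samples, and the *ACVR1* WT group has the widest spread for *Zeb1*, *Zeb2*, *Prrx1*, *Cdh2* and *Cdh11*.

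The comparison of *ACVR1* R206H with *ACVR1* WT among the H3.1K27M samples held most of the called differences between the variants. Of the 8 members tested there, 7 passed an adjusted p of 0.05, 5 higher and 2 lower, where 20.3% of all 15672 genes tested passed, 11.4% higher and 8.95% lower. These counts include *Snai2*, which was tested only through the group where it is high, so that its call is not read as support. *Snai2* and *L1cam* rose by 2.75 and 1.97 on the log2 scale, and *Prrx1*, *Zeb2* and *Cdh2* rose by 0.25, 0.19 and 0.14. *Zeb1* and *Cdh11* had log2 fold changes of -0.36 and -0.13, both lower with *ACVR1* R206H. Only *Snai2* and *L1cam* changed by more than a log2 unit. In a single fit of all 12 samples, whose shared spread includes that of the *ACVR1* WT group, *Snai2* and *L1cam* kept their calls and the other 5 did not. In bulk samples, a change in the number of cells that express a gene and a change in RNA per cell cannot be told apart.

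Without H3.1K27M, none of the 7 members tested passed in the same comparison, and neither did any other gene (0 of 15066, 0%). At an unadjusted p under 0.05 there were 534 genes, 3.54%, and DESeq2 called 26 genes, none of them a member. Without replicate 1 of *ACVR1* WT, edgeR called 5 of the 7, namely *Zeb2*, *Prrx1*, *Cdh2*, *Cdh11* and *L1cam*, where 23.1% of 15087 genes passed. Of the 7 tested members, the groups did not overlap for *L1cam* only, where they did not for 9.61% of all genes tested. Among the H3.1K27M samples the groups did not overlap for each of the 8 tested members, as for 36.8% of all genes. *Snai2*, tested only through the group where it is high, is counted among these 8.

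H3.1K27M itself was compared with its absence at each *ACVR1* variant. With *ACVR1* WT, 1 of 7 members tested passed (*Prrx1*, lower), where 23.0% of 15385 genes passed, 12.6% higher and 10.4% lower. With *ACVR1* R206H, 6 of 8 passed, *Snai2* and *L1cam* higher and *Zeb1*, *Prrx1*, *Cdh11* and *Zeb2* lower, where 56.5% of 15482 genes passed, 29.1% higher and 27.4% lower. A call in the latter comparison is thus common among all genes, while the sizes for *Snai2* and *L1cam* (2.64 and 1.01 on the log2 scale) were larger than for the other 4, between -0.39 and -0.12. Without replicate 1 of *ACVR1* WT, 6 of 7 passed with *ACVR1* WT, where 52.6% of 15432 genes passed. The groups did not overlap for 2 of the 7 members with *ACVR1* WT (45.2% of all genes) and for 6 of the 8 with *ACVR1* R206H (63.1%). The counts with *ACVR1* R206H include *Snai2*, which was tested there only through the group where it is high. The comparisons share samples pairwise, so that their counts are not independent.

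**Figure D3:**
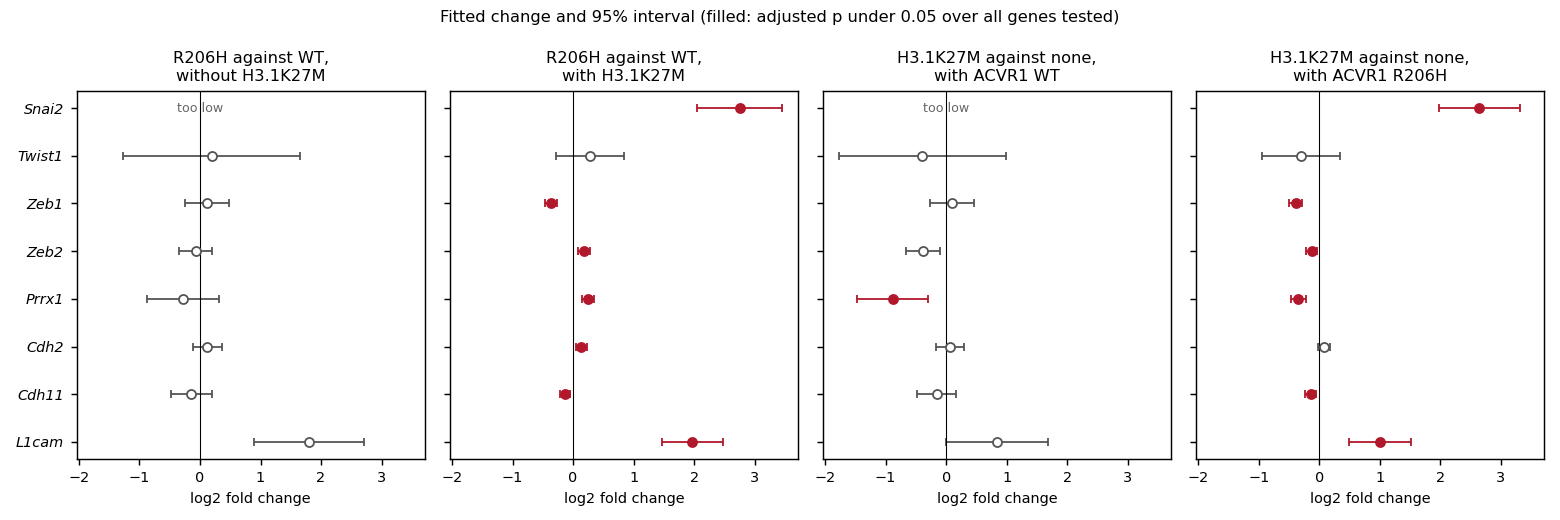
Fitted log2 fold changes with 95% intervals for the 8 members tested in at least 1 comparison, 1 panel per comparison, with filled points for an adjusted p under 0.05. *Snai2* and *L1cam* lie far to the right where *ACVR1* R206H + H3.1K27M is compared, at 2.75 and 1.97 against *ACVR1* WT + H3.1K27M and 2.64 and 1.01 against *ACVR1* R206H.

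*Snai2* (ENSMUSG00000022676, chr16:14705852-14709385, plus strand, GRCm38) encodes Snail2 (Slug), a zinc finger repressor that marks migrating neural crest. Its level was 0.095, 0.052 and 0.538 CPM with *ACVR1* WT, 0.450, 0.310 and 0.436 with *ACVR1* R206H, and 0.286, 0.571 and 0.277 with *ACVR1* WT + H3.1K27M. With *ACVR1* R206H + H3.1K27M it was 1.90, 2.33 and 3.22 CPM. Only the last group stood clear of the others, which overlapped each other. These levels rest on 40, 53 and 86 counts in the *ACVR1* R206H + H3.1K27M libraries and on 1 to 12 counts in each of the other 9. The fitted rise was 6.75-fold over *ACVR1* WT + H3.1K27M (95% interval of the log2 fold change 2.05 to 3.46, edgeR adjusted p = 7.15e-05) and 6.25-fold over *ACVR1* R206H (1.97 to 3.32, adjusted p = 1.68e-05). Leaving out any 1 library kept both calls. *Snai2* reached the minimum mean count only through the *ACVR1* R206H + H3.1K27M libraries, where it is high, and had to differ to be tested, so that these p-values describe the libraries and are not read as support. In the groups too low for the test, the depth-corrected ratio of summed counts of *ACVR1* R206H to *ACVR1* WT was 1.74 (exact interval 0.864 to 3.64, counting error only) and that of H3.1K27M to none with *ACVR1* WT was 1.60 (0.804 to 3.31). These ratios were 1.32 (0.637 to 2.91) and 1.22 (0.593 to 2.65) without replicate 1 of *ACVR1* WT. The level of *Acvr1* was also highest in the *ACVR1* R206H + H3.1K27M samples.

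*Zeb1* (ENSMUSG00000024238, chr18:5591860-5775467, plus strand, GRCm38) and *Zeb2* (ENSMUSG00000026872, chr2:44983632-45117395, minus strand, GRCm38) encode zinc finger and homeobox repressors of *Cdh1*, and they moved in opposite directions between the variants among the H3.1K27M samples. *Zeb1* had 489.0, 514.5 and 514.0 CPM with *ACVR1* WT + H3.1K27M and 392.3, 413.9 and 368.4 with *ACVR1* R206H + H3.1K27M. It was 537.6, 517.9 and 495.7 CPM with *ACVR1* R206H alone, so that the *ACVR1* R206H + H3.1K27M samples were below both of these groups with no overlap. The *ACVR1* WT samples, at 581.3, 468.6 and 388.8 CPM, overlapped all the other groups. *Zeb1* fell to 0.777-fold against *ACVR1* WT + H3.1K27M (log2 fold change -0.36, standard error 0.045, edgeR adjusted p = 0.000113) and to 0.763-fold against *ACVR1* R206H (-0.39, standard error 0.051, adjusted p = 4.28e-05). With all 12 samples in one fit, the former call was lost (adjusted p = 0.15) and the latter kept (0.020). With H3.1K27M at *ACVR1* WT, *Zeb1* had 0.089 (adjusted p = 0.71), or 0.25 (adjusted p = 0.038) without replicate 1 of *ACVR1* WT.

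*Zeb2* had 92.6, 93.8 and 102.4 CPM with *ACVR1* WT + H3.1K27M and 108.5, 111.4 and 107.4 with *ACVR1* R206H + H3.1K27M. With *ACVR1* R206H alone it had 122.8, 119.9 and 116.1 CPM, and with *ACVR1* WT alone 105.0, 134.7 and 139.6. The order from high to low was thus *ACVR1* WT and *ACVR1* R206H, which overlapped, then *ACVR1* R206H + H3.1K27M, which overlapped *ACVR1* WT as well, then *ACVR1* WT + H3.1K27M, below all the others. *Zeb2* rose by 0.19 (standard error 0.046, edgeR adjusted p = 0.0127) between *ACVR1* WT + H3.1K27M and *ACVR1* R206H + H3.1K27M, and fell by 0.12 (0.041, adjusted p = 0.0243) between *ACVR1* R206H alone and *ACVR1* R206H + H3.1K27M. Both calls are marginal, the former being lost without replicate 2 of *ACVR1* WT + H3.1K27M (adjusted p = 0.081) and the latter without replicate 1 of *ACVR1* R206H or replicate 1 or 3 of *ACVR1* R206H + H3.1K27M (0.061 to 0.081). The latter was also lost in DESeq2 (adjusted p = 0.052), and with all 12 samples in one fit both were lost (0.40 and 0.28). With *ACVR1* WT, the H3.1K27M difference was larger, at -0.38 (0.12), but missed the threshold at an adjusted p of 0.061. It passed without replicate 1 of *ACVR1* WT (-0.50, adjusted p = 0.00029), in DESeq2 (adjusted p = 0.031) and with all 12 samples in one fit (adjusted p = 0.0057). Between the variants without H3.1K27M, *Zeb2* had -0.070 (adjusted p = 0.94), or -0.19 (adjusted p = 0.042) without that library. Exons of *Zeb2* share 3.27% of their length with the antisense gene *Zeb2os*, those of *Zeb1* 1.93% with the antisense *Gm10125*, and those of *L1cam* 1.36% with *Arhgap4*. Counting did not use strand, so that reads over these bases were left out as ambiguous.

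*Prrx1* (ENSMUSG00000026586, chr1:163245119-163313710, minus strand, GRCm38), a paired-related homeobox factor of mesenchyme, was lower in each H3.1K27M group. It had 67.6, 99.7 and 138.9 CPM with *ACVR1* WT, 76.3, 84.6 and 88.4 with *ACVR1* R206H, 53.2, 57.7 and 53.6 with *ACVR1* WT + H3.1K27M, and 66.5, 63.9 and 64.3 with *ACVR1* R206H + H3.1K27M. The H3.1K27M samples lay below those without it, by a narrow gap between the lowest *ACVR1* WT sample and the *ACVR1* R206H + H3.1K27M samples. With *ACVR1* R206H, H3.1K27M lowered the fitted level to 0.787-fold (log2 fold change -0.35, standard error 0.055, edgeR adjusted p = 0.000218), a call lost with all 12 samples in one fit (adjusted p = 0.17). With *ACVR1* WT it was 0.542-fold (-0.88, standard error 0.24, adjusted p = 0.0448), a call that was kept without replicate 1 of *ACVR1* WT and lost without any other 1 of the 6 libraries (adjusted p from 0.063 to 0.15). It was lost with a replicate block as well (-0.83, adjusted p = 0.072), in the comparison where 6 of 6 samples correlated best with their own number. The call was kept in DESeq2 (adjusted p = 0.0040), and in edgeR with all 12 samples in one fit (adjusted p = 0.0036) and with no minimum count (0.024). Within the H3.1K27M groups, *Prrx1* rose by 0.25 (0.048, adjusted p = 0.00258) with *ACVR1* R206H. Without H3.1K27M the difference between the variants was -0.29 (0.25, adjusted p = 0.94), or -0.51 (adjusted p = 0.026) without replicate 1 of *ACVR1* WT. The summed oligodendrocyte lineage markers were in the same order as *Prrx1* in the 3 *ACVR1* WT samples, at 475.6, 790.1 and 976.3 CPM for replicates 1, 2 and 3. That order was not particular to this list, as the summed progenitor, microglia, neuron, neural crest and choroid and ependymal markers had it too. In the other groups the oligodendrocyte lineage markers had 513.7 to 612.7 CPM with *ACVR1* R206H, 607.2 to 627.1 with *ACVR1* WT + H3.1K27M and 492.5 to 538.4 with *ACVR1* R206H + H3.1K27M, with none of the 8 genes at 0 in a group. Between the last 2 groups 6 of the 8 were lower with *ACVR1* R206H, where 8.95% of all genes were, as were *Zeb1* and *Cdh11*, while *Prrx1* was higher. The part of that list in these values was not tested.

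*Twist1* (ENSMUSG00000035799, chr12:33957671-33959829, plus strand, GRCm38), a basic helix-loop-helix factor that binds E-boxes, passed in no comparison. It had 1.66, 0.674 and 0.293 CPM with *ACVR1* WT, 0.650, 1.29 and 1.07 with *ACVR1* R206H, 0.695, 0.666 and 0.633 with *ACVR1* WT + H3.1K27M, and 0.807, 0.747 and 0.860 with *ACVR1* R206H + H3.1K27M. The 3 *ACVR1* WT samples alone spanned the levels of all the other groups. The difference between the variants with H3.1K27M was 0.28 on the log2 scale, with a 95% interval of -0.28 to 0.85 (edgeR adjusted p = 0.51). Without H3.1K27M the interval was -1.27 to 1.66, which spans changes of more than 2-fold in either direction. The value was 1.06 (adjusted p = 0.13) without replicate 1 of *ACVR1* WT against 0.19 with it, and for H3.1K27M with *ACVR1* WT it was 0.48 (adjusted p = 0.34) against -0.39. At 6 to 35 counts per library, *Twist1* was near the limit of what could be judged.

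The group means of the abundant cadherins, *Cdh2* and *Cdh11*, spanned 23.4 to 26.6 and 10.4 to 12.8 CPM per kb. *Cdh2* (ENSMUSG00000024304, chr18:16588877-16809246, minus strand, GRCm38) encodes N-cadherin. It had 215.1, 181.6 and 170.6 CPM with *ACVR1* WT and 209.4, 197.1 and 207.3 with *ACVR1* R206H. With H3.1K27M it had 191.1, 196.3 and 198.8 CPM with *ACVR1* WT and 222.8, 206.7 and 212.9 with *ACVR1* R206H. The last 2 groups did not overlap, and *Cdh2* was 1.10-fold higher with *ACVR1* R206H (log2 fold change 0.14, standard error 0.040, edgeR adjusted p = 0.0286). That call was lost on leaving out 4 of the 6 libraries in turn, replicates 1 and 2 of *ACVR1* WT + H3.1K27M and replicates 1 and 3 of *ACVR1* R206H + H3.1K27M (adjusted p from 0.071 to 0.14), and in the fit with no minimum count (0.051). The 95% intervals of the other 3 pairwise comparisons ran from -0.18 to 0.36 on the log2 scale. Without replicate 1 of *ACVR1* WT, *Cdh2* was higher with *ACVR1* R206H alone (0.23, edgeR adjusted p = 0.029) and with *ACVR1* WT + H3.1K27M (0.16, adjusted p = 0.039), against 0.12 and 0.059 with that library, neither of which passed.

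*Cdh11* (ENSMUSG00000031673, chr8:102632095-102785642, minus strand, GRCm38), a cadherin of mesenchymal cells, had 90.9, 133.3 and 118.0 CPM with *ACVR1* WT and 97.8, 105.9 and 104.2 with *ACVR1* R206H. With H3.1K27M it had 101.1, 103.3 and 99.5 CPM with *ACVR1* WT and 93.9, 91.1 and 91.7 with *ACVR1* R206H. The *ACVR1* R206H + H3.1K27M samples were the lowest apart from replicate 1 of *ACVR1* WT. *Cdh11* fell to 0.914-fold of its level with *ACVR1* WT + H3.1K27M (log2 fold change -0.13, standard error 0.039, edgeR adjusted p = 0.0337) and to 0.906-fold of that with *ACVR1* R206H alone (-0.14, 0.044, adjusted p = 0.0150). The former call was kept on leaving out only 1 of the 6 libraries, replicate 3 of *ACVR1* WT + H3.1K27M, and was not made by DESeq2 (adjusted p = 0.078). The latter held on leaving out each library and was lost with all 12 samples in one fit (adjusted p = 0.28). Against *ACVR1* WT, *Cdh11* had -0.14 with *ACVR1* R206H and -0.16 with *ACVR1* WT + H3.1K27M, neither past the threshold, and -0.28 (edgeR adjusted p = 0.024) and -0.30 (adjusted p = 0.0054) without replicate 1 of *ACVR1* WT. The summed fibroblast markers, which include *Pdgfra*, were 192.5, 466.4 and 337.3 CPM in *ACVR1* WT replicates 1, 2 and 3, the same order as *Cdh11*. They were 221.9 to 269.9 with *ACVR1* R206H, 226.8 to 241.6 with *ACVR1* WT + H3.1K27M and 170.1 to 205.4 with *ACVR1* R206H + H3.1K27M, and so, like *Cdh11*, lowest in the last group apart from replicate 1 of *ACVR1* WT. None of the 8 genes was at 0 in a group, and the part of this list in the *Cdh11* values was not tested. Of the 7 tested between the variants under H3.1K27M, *Pdgfra* was called lower and *Col1a1* and *Col1a2* higher, where 8.95% and 11.4% of all genes were. With H3.1K27M at *ACVR1* WT, 3 of 6 were higher and none lower, where 12.6% and 10.4% were. Without replicate 1 of *ACVR1* WT, 5 were higher and *Pdgfra* lower, where 26.9% and 25.6% were. At *ACVR1* R206H, 3 of 6 were higher and 2 lower, where 29.1% and 27.4% were. The genes of the list thus did not move together, and the sum does not stand for each of them. Among the H3.1K27M samples, N-cadherin and cadherin 11 therefore moved in opposite directions, each by less than the spread among the *ACVR1* WT samples, whose SDs were 23.2 and 21.5 CPM.

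*L1cam* (ENSMUSG00000031391, chrX:73853778-73896105, minus strand, GRCm38) encodes an immunoglobulin superfamily adhesion molecule of growing axons that is also used as a marker of invasive cells. It had 0.996, 0.726 and 0.440 CPM with *ACVR1* WT and 2.40, 3.36 and 1.79 with *ACVR1* R206H. With H3.1K27M it had 1.39, 1.52 and 0.950 CPM with *ACVR1* WT and 4.46, 3.996 and 6.39 with *ACVR1* R206H. All 6 samples with the R206H variant exceeded all 6 with the WT receptor, and only the *ACVR1* WT groups with and without H3.1K27M overlapped. Counts ran from 9 to 65 per library without H3.1K27M and from 24 to 171 with it. With H3.1K27M, *ACVR1* R206H raised the fitted level 3.92-fold (95% interval of the log2 fold change 1.47 to 2.47, edgeR adjusted p = 6.98e-05), a call kept on leaving out each library. Without H3.1K27M the fitted difference was 3.48-fold (0.90 to 2.70, unadjusted p = 0.0025 from edgeR's test across all genes, adjusted p = 0.94), and it passed without replicate 1 of *ACVR1* WT (log2 fold change 2.11, adjusted p = 0.0084). H3.1K27M raised *L1cam* 2.01-fold with *ACVR1* R206H (0.49 to 1.52, adjusted p = 0.0033). With *ACVR1* WT the H3.1K27M difference was 1.79-fold (-0.01 to 1.68, adjusted p = 0.13), or a log2 fold change of 1.15 (adjusted p = 0.027) without replicate 1.

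*L1cam* is made by neurons, so the neuron markers were set beside it. The summed neuron list had 387.3 to 405.3 CPM with *ACVR1* R206H + H3.1K27M, 331.2 to 353.5 with *ACVR1* WT + H3.1K27M, 202.8 to 221.1 with *ACVR1* R206H and 200.9 to 266.5 with *ACVR1* WT. None of the 8 genes was at 0 in any group. The list was thus higher in the H3.1K27M groups, and 4 of its 8 genes rose between the variants there, where 11.4% of all genes did, while its level with *ACVR1* R206H alone lay within the *ACVR1* WT range, and below it without replicate 1 of *ACVR1* WT (248.1 and 266.5 CPM in the other 2). That describes the sum, and not all of the 8 genes moved with it. For H3.1K27M with *ACVR1* WT, 3 were called higher and 1 lower, where 12.6% of all genes were higher and 10.4% lower. Without replicate 1 of *ACVR1* WT, 3 were higher and 3 lower, where 26.9% and 25.6% were. With *ACVR1* R206H, 6 were higher and 1 lower, where 29.1% and 27.4% were. The part of the neuron list in the *L1cam* difference was not tested.

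**Figure D4:**
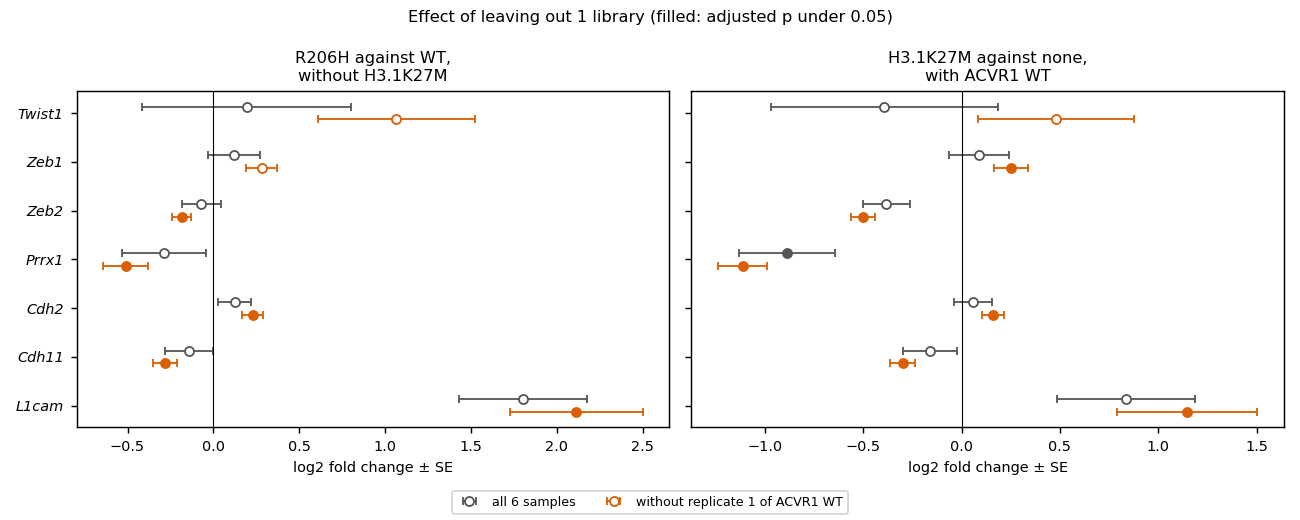
Log2 fold changes ± SE of the 7 members tested in the comparisons that use the *ACVR1* WT group, with all 6 samples and without replicate 1 of *ACVR1* WT (filled points: adjusted p under 0.05). The standard errors are smaller without that library for each member except *L1cam*, and 5 and 6 of the 7 members pass in its absence, against 0 and 1 with it.

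Whether the effect of *ACVR1* R206H itself differed with H3.1K27M was tested as an interaction over all 12 samples. None of the 8 members tested passed, where 11 of 15445 genes (0.0712%) passed, DESeq2 called 96 genes and none of the 6 members to which it gave an adjusted p (*Snai2* and *Twist1* had none), and 1183 genes (7.66%) had an unadjusted p under 0.05. *Snai2* had the largest difference of effects, 1.95 on the log2 scale (standard error 0.85, edgeR adjusted p = 0.64). It rested on replicate 3 of *ACVR1* WT, with 11 of that group's 14 counts: without it the value was 0.39 (standard error 1.10), and without replicate 1 of *ACVR1* WT it was 2.35 (adjusted p = 0.056). *Zeb1* had -0.48 (0.17, adjusted p = 0.55), *Prrx1* 0.54 (0.27, adjusted p = 0.68) and *Zeb2* 0.26 (0.13, adjusted p = 0.68). Without replicate 1 of *ACVR1* WT these 3 passed, at -0.64 (adjusted p = 0.00059), 0.77 (0.0016) and 0.38 (0.0015), where 26.6% of 15459 genes passed. For *L1cam* the difference of effects was 0.16, with a 95% interval of -0.90 to 1.22 (adjusted p = 0.92), so that its effect of *ACVR1* R206H was not shown to depend on H3.1K27M.

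Other genes of the same pathways came from lists that are described by counts and medians. Of 16 other EMT transcription factors, 10 were tested in each pairwise comparison. With H3.1K27M, *ACVR1* R206H raised 3 of them, *Klf8* by 0.67, the architectural chromatin protein gene *Hmga2* by 0.69 and *Sox9* by 0.17 on the log2 scale, and lowered none, where 11.4% of all genes were higher and 8.95% lower, with a median of 0.12 against 0.0014 for all genes. H3.1K27M lowered 7 of the 10 and raised none with *ACVR1* WT, where 10.4% of all genes were lower, and lowered 6 and raised 2, *Foxc1* by 0.63 and *Hmga2* by 0.51, with *ACVR1* R206H, where 27.4% were lower and 29.1% higher. The medians were -0.74 and -0.59 against -0.021 and -0.0018 for all genes. Leaving out replicate 1 of *ACVR1* WT, H3.1K27M lowered 7 and raised 2 with *ACVR1* WT, where 25.6% of all genes were lower and 26.9% higher. In that setting *ACVR1* R206H lowered 4 and raised 1 without H3.1K27M, where 11.0% of all genes were lower and 12.1% higher, and none passed with that library. *Prrx2*, the paralog of *Prrx1*, had log2 fold changes of -2.98 and -2.40 in these comparisons and *Scrt1*, a neural Snail-related factor, -1.64 and -1.43, so that *Prrx1* and *Prrx2* were both lower with H3.1K27M.

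Of 20 epithelial genes, among them *Epcam* and keratins, only 5 or 6 were high enough to be tested. Without replicate 1 of *ACVR1* WT, 7 were tested for H3.1K27M with *ACVR1* WT. Between the variants under H3.1K27M, 1 of 5 was called, *Tjp1* (ZO-1) at -0.19, a share like the 20.3% of all genes. Of 22 mesenchymal genes, 20 were tested in that comparison, and 11 rose and none fell, with a median of 0.33, where 11.4% of all genes were higher and 8.95% lower. The largest were *Ccn2*, a matricellular growth factor, at 0.94, the matrix protein gene *Tnc* at 0.83 and *S100a6* at 0.65. H3.1K27M raised 7 of 20 and lowered none with *ACVR1* WT, where 12.6% of all genes were higher, and raised 14 of 20 and lowered 2 with *ACVR1* R206H, where 29.1% were higher and 27.4% lower, with the matrix protease gene *Mmp2* at 3.37 and 3.00, *Ccn2* at 3.06 and 2.88 and *Col1a2* at 2.50 and 2.76. These 3 genes were thus higher in the H3.1K27M groups, where *Prrx1* was lower. Without H3.1K27M, 19 were tested and their median was 0.30, or 0.54 without replicate 1 of *ACVR1* WT, and none passed, as 0% of all genes did. In the absence of replicate 1 of *ACVR1* WT, 7 of the 19 rose and 2 fell there, where 12.1% of all genes were higher and 11.0% lower, and with H3.1K27M at *ACVR1* WT 13 of 20 rose and 2 fell, where 26.9% were higher and 25.6% lower. *Tnc*, like *Snai2*, was among the genes the study had picked from these libraries, so that its rise is not independent of that choice.

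Among 15 other classical cadherins, 13 were tested in the comparison of the variants under H3.1K27M, and 2 rose, *Cdh22* by 0.61 and *Cdh4* (R-cadherin) by 0.18, a share near the 11.4% of all genes called higher there. With H3.1K27M at *ACVR1* R206H, 3 of 11 rose and 5 fell, where 29.1% of all genes were higher and 27.4% lower, with *Cdh12* at 1.73, *Cdh8* at -1.21 and *Cdh22* at 0.93 the largest. Of the 7 catenins, which link cadherins to actin, 4 rose between the variants under H3.1K27M, where 11.4% of all genes were higher and 8.95% lower, with *Jup* (plakoglobin) at 0.31, *Ctnna2* at 0.26 and *Ctnna1* at 0.26 the largest, and *Ctnnb1* (beta-catenin) fell by 0.17. All 3 other genes of the L1 family rose between the variants under H3.1K27M, *Chl1* by 0.53, *Nrcam* by 0.34 and *Nfasc* by 0.24, each by less than *L1cam*. With H3.1K27M at *ACVR1* R206H, 1 of 7 catenins rose and 2 fell, and of the L1 family *Chl1* rose by 0.51 and *Nrcam* fell by 0.12, against the same 29.1% and 27.4% of all genes. Of 12 corepressors that Snail and Zeb factors recruit, *Rcor1* and *Hdac1* rose by 0.29 and 0.16 between the variants under H3.1K27M, and *Ezh2*, a lysine 27 methyltransferase, fell by 0.26, a share near the 20.3% of all genes called there. For H3.1K27M at *ACVR1* R206H, 2 of the 12 rose and 7 fell, where 29.1% of all genes were higher and 27.4% lower, with *Ezh2* at -0.57, *Ajuba* at 0.54 and *Wtip* at 0.49 the largest. Between the variants without H3.1K27M, no gene of these lists passed. Without replicate 1 of *ACVR1* WT, 5 of 10 cadherins rose and 1 fell, and 1 of 7 catenins rose and 1 fell. In that setting 1 of 3 L1 family genes and 4 of 12 corepressors rose and none fell, where 12.1% of all genes were higher and 11.0% lower.

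BMP target genes were set beside the members, and receptor signaling itself was not measured in these libraries. With H3.1K27M, 13 of 15 rose with *ACVR1* R206H and none fell, where 11.4% of all genes were higher and 8.95% lower, at a median of 1.70, with *Atoh8* at 3.38, *Id1* at 2.99 and *Id3* at 2.99. Without H3.1K27M, none of 14 passed, at a median of 0.37, and without replicate 1 of *ACVR1* WT 5 rose and 2 fell, where 12.1% of all genes were higher and 11.0% lower, at a median of 0.28. With H3.1K27M, the rises of *Snai2* and *L1cam* between the variants lay between the median of the list and *Atoh8*, *Id1* and *Id3*. Those of *Zeb2*, *Prrx1* and *Cdh2* lay below the median. For H3.1K27M at *ACVR1* R206H, 11 of 15 BMP targets rose and 2 fell, at a median of 1.18, where 29.1% of all genes were higher and 27.4% lower. In the interaction 2 of 15 passed, *Id3* and *Id2*, where 0.0712% of all genes did.

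Among the marker lists that follow, only the microglia sum separated the samples with H3.1K27M from those without it. The summed microglia list had 4.98 to 30.1 CPM with *ACVR1* WT, 8.55 to 12.1 with *ACVR1* R206H, 1.43 to 1.74 with *ACVR1* WT + H3.1K27M and 2.15 to 3.03 with *ACVR1* R206H + H3.1K27M, with no gene of the 8 at 0 in a whole group. With *ACVR1* WT, 4 of its 5 tested genes were lower with H3.1K27M, where 10.4% of all genes were, and with *ACVR1* R206H 3 of 4 (*C1qa*, *C1qb* and *Csf1r*), where 27.4% were, while the other, *P2ry12*, rose by 1.01. *P2ry12*, the only gene of the list tested between the variants under H3.1K27M, rose there by 0.99. The genes called lower thus reached the minimum mean count only through the groups without H3.1K27M. They had to be lower to be tested, so that their counts are not read as support. *Prrx1* was lower with H3.1K27M at each variant and *Zeb2* at *ACVR1* R206H, and the part of microglial RNA in this was not tested. The pericyte list had 22.4 to 27.5 CPM with *ACVR1* R206H + H3.1K27M and 12.1 to 16.9 in the other samples, with none of its 8 genes at 0 in a group. It was thus highest in the group where *Snai2* and *L1cam* were highest. Unlike *L1cam*, it overlapped between *ACVR1* R206H alone (12.4 to 16.9 CPM) and *ACVR1* WT alone (12.1 to 13.8). Of its 5 genes tested between the variants under H3.1K27M, *Rgs5* was called higher and *Vtn* lower, where 11.4% and 8.95% of all genes were. The part of the pericyte list in the *Snai2* and *L1cam* values was not tested. The endothelial list had 4.79 to 15.98 CPM, with *Cldn5* at 0 in 3 of the 4 groups. The neural crest list, set beside *Snai2*, had 79.1 to 86.5 CPM with *ACVR1* R206H + H3.1K27M and 76.2 to 125.9 in the other samples, and *Tfap2b* was at 0 with *ACVR1* WT + H3.1K27M. Of its 5 genes tested between the variants under H3.1K27M, with 11.4% of all genes higher and 8.95% lower, *Ngfr*, *Tfap2a* and *Pax3* rose by 1.43, 0.69 and 0.31 and *Sox10* fell by 0.47, so that some of its genes moved with *Snai2* although the sum did not. With H3.1K27M at *ACVR1* R206H, *Ngfr* and *Sox10* rose by 1.66 and 1.02 and *Tfap2a*, *Pax3* and *Erbb3* were called lower. The part of this list in the *Snai2* values was not tested. The choroid and ependymal list had 49.8 to 107.1 CPM in all.

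**Figure D5:**
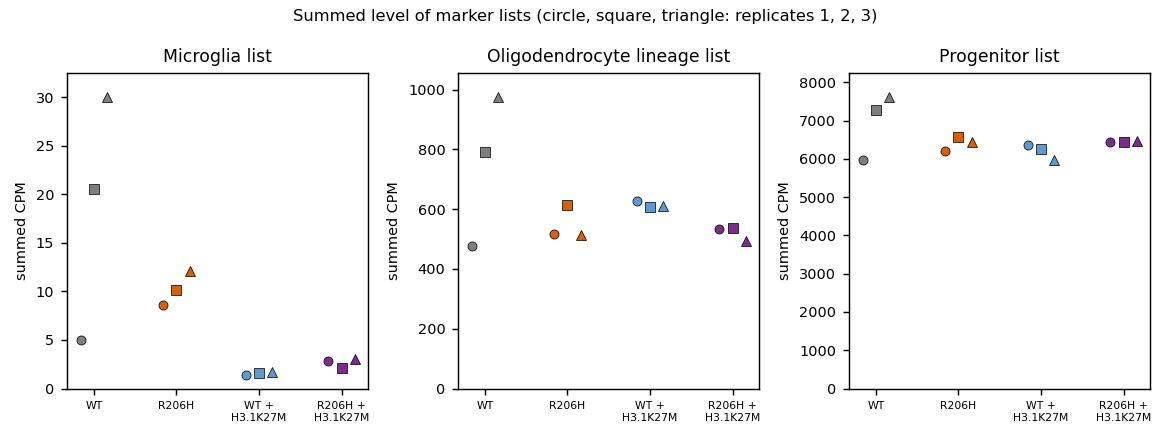
Summed level (CPM, axes from 0) of the microglia, oligodendrocyte lineage and progenitor marker lists in the 12 samples, with circles, squares and triangles for replicates 1, 2 and 3. The microglia list is at 1.43 to 3.03 CPM in the H3.1K27M samples and 4.98 to 30.1 in the others, and the *ACVR1* WT samples spread widely in all 3 lists.

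Finally, the genes whose log2 level over the 12 samples was most like that of each of 8 members were listed as a description, since the points share libraries and group differences. *Snai2* was most like *Agtrap* (Pearson's r = 0.966), *L1cam* like *Pcx* (0.980) and *Wif1* (0.968), *Zeb1* like *Pik3r1* (0.969), *Zeb2* like *Srgap1* (0.976), *Prrx1* like *Pkp4* (0.990), *Cdh2* like *Abcg2* (0.960), *Cdh11* like *Pdgfra* (0.975) and *Twist1* like *Acot9* (0.913). *Snai1* and *Cdh1* were too low to be compared, and none of the 8 others had a member as its most like gene.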

How the data were processed

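RNA from 12 samples of infected brainstem progenitors was sequenced. Per the labels and methods, the authors mapped read pairs with STAR 2.6.0b-1 to mm10 (GRCm38), counted them on Ensembl genes with HTSeq (no strand, union mode, ambiguous reads left out), and deposited raw read counts per gene, not pooled. Groups and replicate numbers came from the labels, which do not say whether replicates are separate cultures, so that p-values measure the spread between these samples.

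Here, counts were scaled by TMM and tested with edgeR 4.0.16 (quasi-likelihood F test, R 4.3.3) on the 6 samples of each comparison, or on all 12 for the interaction. Genes with a mean scaled count of at least 10 were kept, p-values were Benjamini-Hochberg adjusted over all genes tested, and the threshold was 0.05. Intervals are 95% from the fit's standard error. Groups of 3 cannot give a small exact p for a single gene. The alternatives were DESeq2 1.42.0, the tool of the authors, median-of-ratios size factors, no minimum, a replicate block, all 12 samples in one fit, and leaving out each library. List counts and count ratios without replicate 1 of *ACVR1* WT were added after seeing the data. Scripts were tested on simulated data. Symbols and exon lengths came from GENCODE M21 and promoters from RefSeq.

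All 10 members are named, with their counts or levels in every sample. Of each list, at most 3 called genes of largest change per comparison are named. Of each member's 3 most correlated genes, those quoted lead. The members and lists were chosen with earlier results of these data known.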

Additional observations from a re-analysis of the deposited data

How the results depend on the processing

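With H3.1K27M, *Snai2* and *L1cam* kept their direction and call between *ACVR1* R206H and *ACVR1* WT in every alternative run, but *Snai2* was tested only through the group where it is high, so that its kept call is no sign of stability. All 12 samples in one fit gave 440 genes and 2 members, against 3185 and 7, and leaving out 1 library gave 1915 to 2966 genes and 4 to 7 members. Without H3.1K27M, DESeq2 gave 26 genes and the 12-sample fit 11, against 0, and leaving out 1 library gave 0 to 3485 genes and 0 to 5 members, all of the calls without replicate 1 of *ACVR1* WT. For H3.1K27M with *ACVR1* WT, the 12-sample fit gave 6335 genes and 2 members, DESeq2 gave 2 members, and leaving out 1 library gave 1037 to 8115 genes and 0 to 6 members, against 3533 and 1. With *ACVR1* R206H, the 12-sample fit gave 3 members (*Snai2*, *Zeb1* and *L1cam*) and leaving out 1 library 5 or 6, against 6. For the interaction, DESeq2 gave 96 genes, no minimum count 18, and leaving out 1 library 3 to 4112 genes and 0 to 3 members, against 11 and 0.

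Some uncalled differences changed sign when 1 library was left out. Between the variants without H3.1K27M, *Twist1* ran from -0.22 to 1.06, *Zeb1* from -0.013 to 0.28, *Zeb2* from -0.19 to 0.0065 and *Prrx1* from -0.51 to 0.00016. For H3.1K27M with *ACVR1* WT, *Twist1* ran from -0.80 to 0.48, *Zeb1* from -0.039 to 0.25 and *Cdh2* from -0.0072 to 0.16. For the interaction, *Twist1* ran from -0.77 to 0.51, *Cdh2* from -0.080 to 0.086, *Cdh11* from -0.10 to 0.16 and *L1cam* from -0.14 to 0.43, and with no minimum count *Cdh2* was -0.023 and *Cdh11* -0.024. The cause of these changes was not tested.

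Same-numbered samples did not deviate together in every pair (correlations from -0.11 to 0.29 without H3.1K27M and from -0.019 to 0.056 in the other comparisons), so the numbers were not taken to pair the samples. In the comparisons of *ACVR1* R206H with *ACVR1* WT, 4 of 6 samples without H3.1K27M and 2 of 6 with it correlated best with their own number, and for H3.1K27M 6 of 6 with *ACVR1* WT and 3 of 6 with *ACVR1* R206H. With a replicate block, H3.1K27M with *ACVR1* WT gave 2023 genes and 0 members and the interaction 2 genes, and no other count of calls moved by over 1.5 times. Depth limits *Snai1*, *Cdh1* and, outside *ACVR1* R206H + H3.1K27M, *Snai2*.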
